A study of Mus musculus with 6 samples.

Results

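Expression of 6 natural killer (NK) cell receptors and 3 signalling adaptor chains, 8 of which could be read among 18193 measured genes, was compared between thymic progenitors with and without the transcription factor Tcf1. NK receptors of the lectin-like and immunoglobulin families sense stress ligands and class I molecules on other cells, and most of the activating ones have no signalling motif of their own. They borrow it from small transmembrane adaptor chains. Fcer1g and Tyrobp carry an immunoreceptor tyrosine-based activation motif (ITAM) that recruits the kinases Syk and Zap70, and Hcst carries a motif that recruits phosphatidylinositol 3-kinase. The receptors were Klrd1, Klrk1, Klrb1c, Klrb1f, Klre1 and Ncr1, and the adaptors were Fcer1g, Tyrobp and Hcst. These 9 genes were chosen by name, as NK receptors and their adaptors, after earlier results of the same arrays were known, and the values used in that choice were the differences between genotypes. All differences of members are therefore given as a description, with a standard error and without a test.

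The arrays (Affymetrix mouse expression arrays) measured RNA of early thymic progenitors, the most immature thymocytes of the T lineage, taken from the thymus of C57Bl/6 mice of 10 weeks. The sort kept kit-positive cells that carried CD44 but neither CD25 nor lineage markers. There were 3 arrays of Tcf1-/- mice, which lack the transcription factor Tcf1, and 3 of Tcf1-/+ mice. Another label calls the second group wild type, so its genotype is not settled, and it is named here as in the sample titles. The labels do not say whether arrays come from separate animals or pools, so the spread between them may be partly technical. An average of 3 ng of RNA was obtained from 1000 cells and was amplified before hybridization, so all levels are levels after amplification.

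Of the 9 genes, 8 had at least 1 probe set that the platform annotation assigns to them alone, 9 probe sets in all, among 18193 genes measured in this way. Klrb1f had 2 probe sets. Klrb1c had none, since its only probe set also names Klrb1b, and it was not analysed here. A level is a log2 value as deposited, and it cannot be set against the level of another gene. The background level, the 95th percentile of 27 control probe sets for bacterial transcripts, was 5.21. Of the 8 genes, 5 had both genotype means above it, Klrk1 had 1 mean above it, and Klre1 and Ncr1 had both means under it.

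One array stood apart. Tcf1-/- replicate 2 correlated with the others between 0.870 and 0.893 over all probe sets, against 0.913 to 0.933 among the other 5 arrays. The array weight that limma estimated was 0.53 for it and 1.08 to 1.19 for the others. Control probe sets for Tfrc differed between 3' and 5' ends by 0.05 on it and by -1.08 to -0.62 on the others. For Gapdh its value of 2.78 lay within the range of the others. The mean level of Y-linked genes was 4.01, 4.07 and 5.004 on Tcf1-/+ replicates 3 and 1 and Tcf1-/- replicate 1, and between 8.42 and 9.39 on the other 3 arrays, so both genotypes held arrays of either level. Of 8 progenitor and gate genes, 7 were above background on all 6 arrays, and Ptcra was under it on all 6. Those above background included Il2ra, which encodes CD25, the marker that sorted cells should lack, so this count does not check the gate. The mean level of the 8 genes was 9.12 to 9.24 on the Tcf1-/+ arrays and 8.52 to 8.77 on the Tcf1-/- arrays. Of the 8 genes, 6 had lower and 2 higher means in Tcf1-/-. The genotypes were apart downwards for 3 of them, where 4.94% of all genes were. Kit, Cd34 and Flt3, named after their values were seen, were among the 6 with lower means.

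The members differed in size and direction. Among the adaptors, Fcer1g was 4.83-fold higher in Tcf1-/- progenitors while the means of Tyrobp and Hcst differed little. Among the receptors, the brighter Klrb1f probe set had higher and Klrd1 lower levels on every Tcf1-/- array than on any Tcf1-/+ array, while the genotypes overlapped on the dimmer Klrb1f probe set. In sorted bulk RNA, more cells of a type and more RNA per cell cannot be told apart. Of the 8 members, 6 had a higher mean in Tcf1-/-, where 54.3% of all genes did, and 4 differed at least 2-fold in either direction, where 9.13% of all genes did. The genotypes did not overlap in the upward direction for 2 members, against 7.22% of all genes, and in the downward direction for 1 member, against 4.94%. Because these differences chose the members, nothing is read from those counts. No member was called, since limma passed 0 of the 45037 probe sets (0%) at its adjusted threshold of 0.05, with a lowest adjusted p of 0.315. At an unadjusted p under 0.05 limma had 2917 probe sets, and an unequal-variance test per probe set called 0 after adjustment, with 1735 unadjusted.

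**Figure D1:**
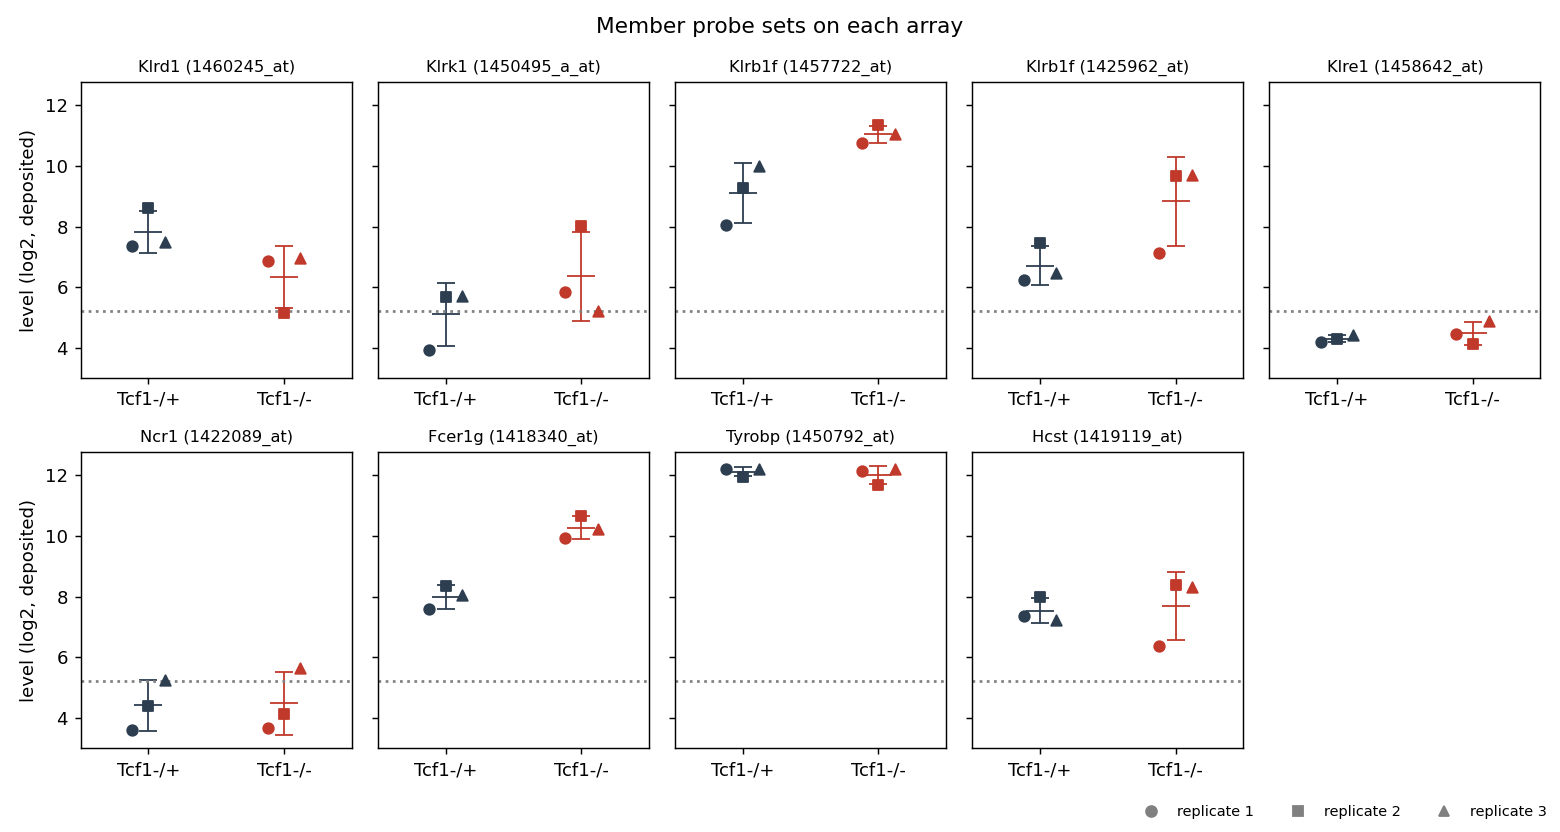
Each panel plots the deposited log2 level of 1 probe set on the 3 Tcf1-/+ (dark) and 3 Tcf1-/- (red) arrays, with mean and SD as bars and the background level of 5.21 as a dotted line. Fcer1g and the brighter Klrb1f probe set are higher and Klrd1 is lower on all Tcf1-/- arrays, while Klre1 lies under the dotted line on all 6 arrays and Ncr1 on 4 of them.

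The promoter windows of the members are shown because the factor removed in these mice binds DNA itself. RefSeq promoter windows (GRCm38.p6, from 250 bases before the start site to 50 after it) were matched by symbol for 7 of the 9 genes, in 9 windows. Printed here are Fcer1g, whose level differed most, and Klrb1f and Klrk1, the members whose window holds the letters CTTTGA, a core that TCF and LEF proteins recognize. Capitals mark that core on either strand. The first lies at chr1:171234300-171234599 on the minus strand, the second at chr6:129045651-129045950 on the plus strand and the third at chr6:129623815-129624114 on the minus strand.
Fcer1g: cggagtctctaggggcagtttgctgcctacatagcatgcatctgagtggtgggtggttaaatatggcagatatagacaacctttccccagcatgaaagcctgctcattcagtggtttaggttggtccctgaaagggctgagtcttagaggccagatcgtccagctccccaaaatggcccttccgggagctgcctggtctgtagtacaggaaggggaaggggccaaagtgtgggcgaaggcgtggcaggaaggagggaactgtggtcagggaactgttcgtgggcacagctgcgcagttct
Klrb1f: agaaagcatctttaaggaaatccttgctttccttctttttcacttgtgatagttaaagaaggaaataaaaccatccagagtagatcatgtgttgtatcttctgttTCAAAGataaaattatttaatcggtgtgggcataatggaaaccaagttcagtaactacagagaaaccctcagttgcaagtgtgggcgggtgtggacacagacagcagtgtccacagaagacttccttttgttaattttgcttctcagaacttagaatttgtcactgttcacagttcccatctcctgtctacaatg
Klrk1: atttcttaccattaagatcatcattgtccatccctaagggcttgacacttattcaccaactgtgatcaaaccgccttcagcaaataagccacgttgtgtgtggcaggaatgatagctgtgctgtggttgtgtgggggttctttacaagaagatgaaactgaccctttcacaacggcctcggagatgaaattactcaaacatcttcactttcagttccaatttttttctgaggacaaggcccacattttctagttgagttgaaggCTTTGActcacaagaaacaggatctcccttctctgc
In Klrb1f the core stands on the opposite strand at position -145 from the start site, and in Klrk1 on the gene's own strand at position 14. It was found on either strand in 2 of the 9 windows and in 5257 of 32851 promoter windows of this length (16.003%). The letters TGTGGT, a core of RUNX factors, were in 6 of the 9 windows, where 16.8% of all windows hold them, and in Fcer1g they began at position 9. Ncr1 gave 2 overlapping windows, and both are among those 6. Klre1 also gave 2 overlapping windows, so the 9 windows of 7 genes are not all separate. CAGNTG, the core bound by E proteins, was in 6 of 9 windows, where 51.4% of all windows hold it, and Fcer1g held it at positions -212 and 35. Both Ncr1 windows are among these 6 as well. GAGGAA, a core of PU.1, was in 2 of 9 windows and in 28.3% of all, and AGGTGT, a core of T-box factors, was in 0 of 9 and in 13.7% of all. None of these matches overlapped a CTTTGA core in the printed windows. A match is a run of letters and not a bound site, and no match says only that these letters are not in this window.

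Fcer1g encodes the common gamma chain of Fc receptors, which also carries signals of NK receptors of the Klrb1 family and of Ncr1. Its level was 9.92, 10.67 and 10.22 on Tcf1-/- replicates 1 to 3 and 7.59, 8.36 and 8.04 on the Tcf1-/+ arrays. The groups were separated by a gap of 1.56, larger than the range within either group. The means were 10.27 ± 0.38 (SD, n = 3) and 7.998 ± 0.39 (SD, n = 3), a difference of 2.27 (SE 0.31). Among all 18193 genes, 87 had a larger upward difference. With any 1 array left out the difference lay between 2.07 and 2.45. It was 2.08 among the high Y-linked arrays, 2 of Tcf1-/- and 1 of Tcf1-/+, and 2.11 among the low ones, 1 of Tcf1-/- and 2 of Tcf1-/+. With a single array on 1 side, these values have no spread of their own.

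Tyrobp, the other ITAM chain and the partner of many NK and myeloid receptors, was at 12.15, 11.67 and 12.22 in Tcf1-/- and at 12.22, 11.94 and 12.20 in Tcf1-/+. The groups overlapped, and the means of 12.01 ± 0.30 (SD, n = 3) and 12.12 ± 0.16 (SD, n = 3) differed by -0.11 (SE 0.23). Without Tcf1-/- replicate 2, its lowest array, the sign turned to 0.06. These levels lay far above background on every array of both genotypes.

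Hcst is a signalling partner of the receptor encoded by Klrk1, and in the RefSeq gene table it is the next coding gene after Tyrobp on chromosome 7. It was at 6.39, 8.37 and 8.31 in Tcf1-/- and at 7.35, 8.004 and 7.25 in Tcf1-/+. Tcf1-/- replicate 1 was the lowest of all 6 arrays and the other Tcf1-/- arrays were the highest. The means were 7.69 ± 1.13 (SD, n = 3) and 7.53 ± 0.41 (SD, n = 3), a difference of 0.15 (SE 0.59). Its sign depended on single arrays, with 0.81 without Tcf1-/- replicate 1 and -0.19 and -0.16 without replicates 2 and 3.

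Setting adaptors against each other within an array removes any scaling shared by the whole array, and only its change between genotypes can be read, not its size. The log2 level of Fcer1g minus that of Tyrobp was -2.23, -1.0007 and -2.00 in Tcf1-/- and -4.63, -3.58 and -4.16 in Tcf1-/+. This difference between the ITAM chains was 2.38 higher in Tcf1-/- on average, without overlap between genotypes. Fcer1g had a gap of 1.56 between genotypes, and Tyrobp varied only from 11.67 to 12.22. This pair therefore had to separate the genotypes and is no further result. Fcer1g minus Hcst was 3.53, 2.30 and 1.91 in Tcf1-/- against 0.24, 0.36 and 0.80 in Tcf1-/+, a shift of 2.12, again without overlap. Hcst minus Tyrobp overlapped between genotypes, with a shift of 0.27. Both shifts of Fcer1g hold its own difference of 2.27, one of those that chose the members, and are no separate support.

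**Figure D2:**
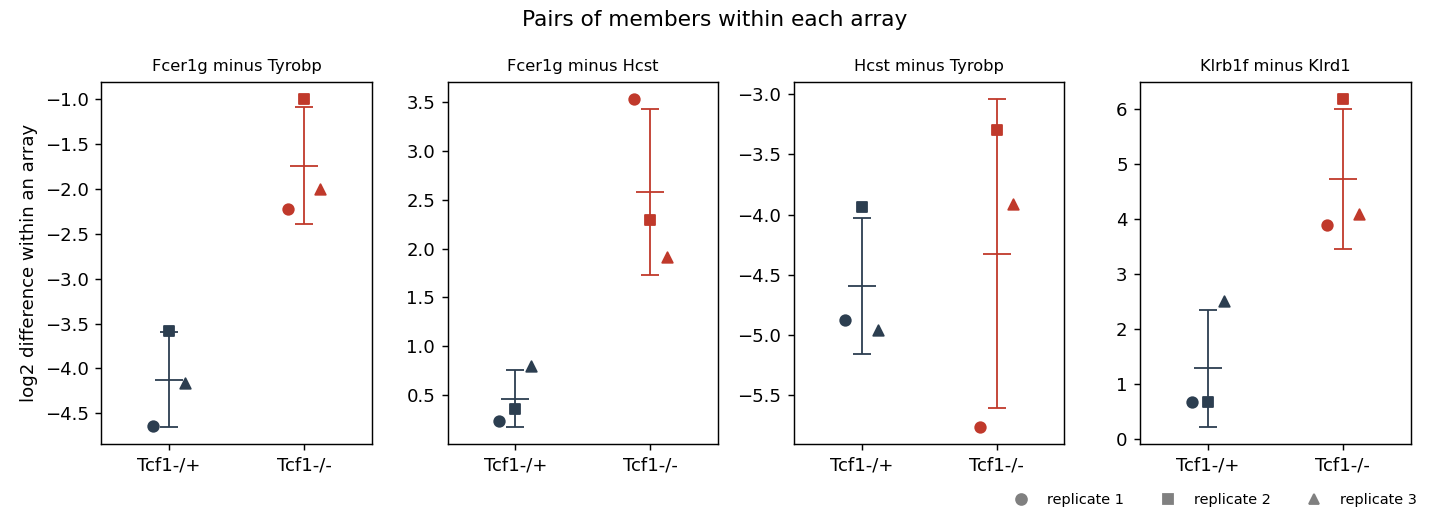
Each panel plots, for every array, the log2 difference between 2 members, with mean and SD as bars; Tcf1-/+ arrays are dark and Tcf1-/- arrays red. The genotypes are apart for Fcer1g minus Tyrobp (shift 2.38) and Fcer1g minus Hcst (2.12) and overlap for Hcst minus Tyrobp. They are also apart for Klrb1f minus Klrd1 (3.44), which follows from the opposite directions of these 2 genes. The separation for Fcer1g minus Tyrobp follows from that of Fcer1g, since Tyrobp varied little. The vertical scales differ between panels.

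Klrb1f encodes an activating receptor of the Klrb1 (NKR-P1) family, whose genes lie among those of their Clec2 ligands on chromosome 6. On its brighter probe set the level was 10.77, 11.34 and 11.04 in Tcf1-/- and 8.04, 9.27 and 10.00 in Tcf1-/+. All Tcf1-/- arrays were above all Tcf1-/+ arrays, with a gap of 0.77, and the Tcf1-/+ arrays were spread over a wider range. The means of 11.05 ± 0.28 (SD, n = 3) and 9.10 ± 0.99 (SD, n = 3) differed by 1.94 (SE 0.51). On the dimmer probe set the levels were 7.12, 9.67 and 9.70 against 6.23, 7.45 and 6.45. There Tcf1-/- replicate 1 lay within the Tcf1-/+ range, and the difference was 2.12 (SE 0.78). With any 1 array left out the difference on the brighter probe set was 1.41 to 2.39.

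Klrd1 encodes CD94, which pairs with the products of the Klrc genes to recognize Qa-1, a non-classical class I molecule. It was at 6.88, 5.16 and 6.95 in Tcf1-/- and at 7.38, 8.61 and 7.48 in Tcf1-/+. The Tcf1-/- arrays were all lower, by a gap of 0.42, and replicate 2 was just under background. The means were 6.33 ± 1.02 (SD, n = 3) and 7.82 ± 0.68 (SD, n = 3), a difference of -1.49 (SE 0.60), and 269 of all genes had a larger downward difference. The size rested on single arrays, with -0.90 without Tcf1-/- replicate 2. It was -2.55 among the high Y-linked arrays, where Tcf1-/+ replicate 2 stands alone, and -0.55 among the low ones, where Tcf1-/- replicate 1 does. Of its partners, Klrc1, Klrc2 and Klrc3 had both genotype means under background. Klrc1 was nevertheless at 6.05, above background, on Tcf1-/+ replicate 2, the array with the highest Klrd1. The other probe set of Klrc1 had the opposite sign of difference. These partners were chosen for mention after their values were seen.

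Klrk1 encodes NKG2D, a receptor for stress-induced ligands, and is the next coding gene after Klrd1. It was at 5.83, 8.03 and 5.23 in Tcf1-/- and at 3.92, 5.69 and 5.71 in Tcf1-/+. The groups overlapped, and the highest value was that of Tcf1-/- replicate 2. The means of 6.36 ± 1.47 (SD, n = 3) and 5.11 ± 1.02 (SD, n = 3) differed by 1.26 (SE 0.86), and the second lay under background, so the size is not well measured. It was 0.42 without Tcf1-/- replicate 2 and 0.67 without Tcf1-/+ replicate 1.

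Klre1, the coding gene before Klrd1, and Ncr1, the immunoglobulin-like receptor NKp46 that marks NK cells and some other innate lymphoid cells, were near or under background. Klre1 lay between 4.11 and 4.88 on all 6 arrays and differed by 0.18 (SE 0.25). Ncr1 was at 3.67, 4.13 and 5.67 in Tcf1-/- and at 3.60, 4.39 and 5.26 in Tcf1-/+, with replicate 3 of each genotype just above background. Its difference was 0.07 (SE 0.65).

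The difference between adaptors and receptors did not separate the genotypes. The median difference was 0.18 over the 5 receptors and 0.15 over the 3 adaptors, where the median of all genes was 0.04. The receptor median was the value of Klre1, a gene under background, and it was 1.26 over the 3 receptors with a mean above it. The range was -1.49 to 1.94 among receptors and -0.11 to 2.27 among adaptors. The receptors near no difference, Klre1 and Ncr1, had both means under background, and the other 3 differed by -1.49, 1.26 and 1.94. Among the adaptors, Tyrobp and Hcst were near no difference at levels above background. Means over genes per array were centred on Tcf1-/+. The adaptors were at 0.27, 1.02 and 1.03 in Tcf1-/- and at -0.16, 0.22 and -0.06 in Tcf1-/+, without overlap. That separation rests on Fcer1g, since Tyrobp and Hcst overlapped between genotypes, with differences of -0.11 and 0.15. The receptors were at 0.17, 0.40 and 0.60 in Tcf1-/- and at -0.72, 0.30 and 0.42 in Tcf1-/+, with overlap. The adaptor mean minus the receptor mean also overlapped, at 0.10, 0.61 and 0.43 against 0.56, -0.08 and -0.48. Klrb1f minus Klrd1 within an array was 3.89, 6.18 and 4.09 in Tcf1-/- against 0.67, 0.67 and 2.51 in Tcf1-/+. That is a shift of 3.44 between 2 receptors of the same gene complex. Klrb1f was higher and Klrd1 lower on every Tcf1-/- array, so this pair had to separate the genotypes and is no further result.

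**Figure D3:**
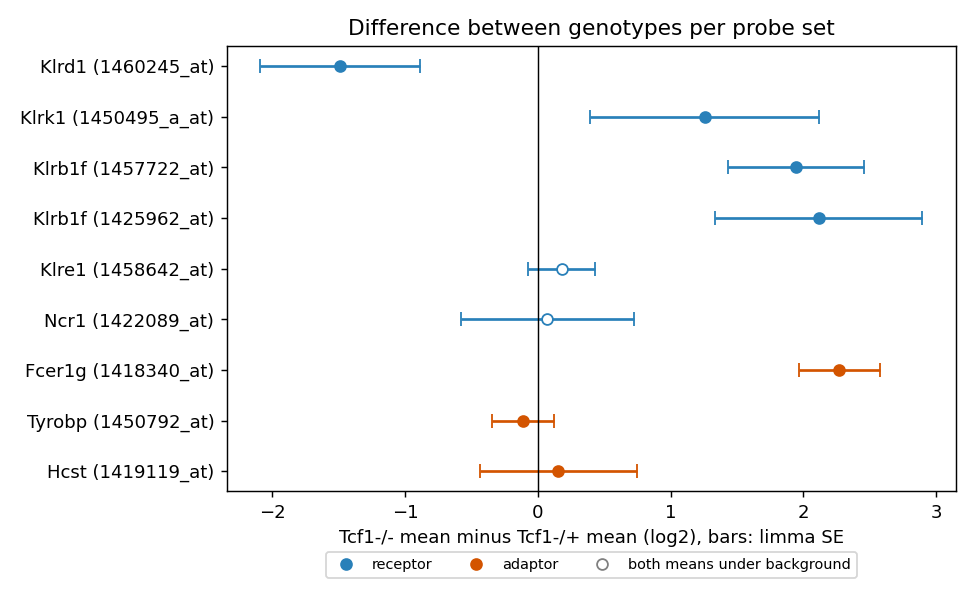
Points give the Tcf1-/- mean minus the Tcf1-/+ mean of each member probe set in log2 units, with the limma standard error as a bar; receptors are blue, adaptors orange, and open points have both means under background. Fcer1g at 2.27 and the 2 Klrb1f probe sets at 1.94 and 2.12 lie to the right, Klrd1 at -1.49 to the left.

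The closest relatives of the receptors were read from a list of other NK lectin-like receptors, of which 13 of 23 were measured. No gene of it was called by limma, 9 had higher and 4 lower means, and 8 had both means under background. Of the 5 above background, Klrb1b, an inhibitory receptor of the same family as Klrb1f, was the 1 gene whose genotypes did not overlap upwards. It was at 10.41, 11.83 and 10.79 in Tcf1-/- and at 6.53, 8.18 and 5.17 in Tcf1-/+, a difference of 4.39 (SE 0.81, limma adjusted p 0.440). All 5 of its probe sets were higher on every Tcf1-/- array, by 4.27 to 5.48. The 2 probe sets with the largest differences, 4.90 and 5.48, had Tcf1-/+ means under background. Sequences of this family are alike, so that probes of one gene may read another, and which gene each probe set reads was not tested. Klrb1a differed by 1.90 (SE 1.35) with values from 4.20 to 9.80 among Tcf1-/- arrays and a Tcf1-/+ mean under background, and by 0.50 without Tcf1-/- replicate 2. Klrg2 and Klra7 differed by 0.38 (SE 0.24) and 0.26 (SE 0.25), and 1 other probe set of Klra7 had the opposite sign.

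Fcer1g and Tyrobp also serve receptors of myeloid and mast cells, and 22 of 25 such partners outside NK cells were measured. Means were higher for 14 and lower for 8, with a median of 0.07, and none was called. The genotypes did not overlap upwards for Pilrb1, with a difference of 1.22 (SE 0.28), and for Clec5a, with 1.13 (SE 0.29) from a Tcf1-/+ mean under background. Fcer1a, the chain that binds IgE, differed by 1.38 (SE 1.01) from a Tcf1-/+ mean under background, and the Fc gamma receptor gene Fcgr3 by 0.91 (SE 0.71), both with overlap. With values floored at background Fcer1a differed by 0.86 and Clec5a by 0.43. Without Tcf1-/+ replicate 2, Fcer1a differed by 0.50 and Fcgr3 by 0.22. Of the 6 other ITAM chains, 5 had lower means and 1 a higher mean, with a median of -0.83. Cd3g, Cd3e and Cd79b differed by -1.92 (SE 0.90), -1.66 (SE 0.55) and -0.59 (SE 0.73) with overlap, and Cd3d by -1.06 (SE 0.41) without. Without Tcf1-/- replicate 2 the value was -1.02 for Cd3g and -0.015 for Cd79b, and without Tcf1-/+ replicate 2 it was -0.67 for Cd3d and -0.024 for Cd79b.

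Downstream of the chains, the kinases and adaptors were even, with 16 of 32 measured genes higher, 16 lower, a median of -0.03 and no gene whose genotypes were apart. The largest of the 4 named by the rule was the Src-family kinase gene Fgr, at 1.95 (SE 0.89), with the opposite sign on its other probe set. For Sos1 the value was 1.11 (SE 0.78), though 2 of its other probe sets went the other way, for Tec 0.72 (SE 0.50) and for Pik3cg -0.83 (SE 0.37). Without Tcf1-/- replicate 2 the values were 1.16 for Fgr, 0.25 for Sos1 and 0.24 for Tec, and without replicate 1 that of Pik3cg was -0.49. Of 19 phosphatases and other inhibitors, 11 had higher and 8 lower means. Sla, an adaptor that lowers surface levels of antigen receptors, was higher by 1.24 (SE 0.41) without overlap, on 4 probe sets of the same sign. Cd200r1 differed by 1.77 (SE 0.83), Dok1 by 0.76 (SE 0.31) and Cd33 by -0.87 (SE 0.46), and without Tcf1-/- replicate 2 they were 2.70 for Cd200r1 and -0.49 for Cd33. Ligands of the receptors were at 4 higher and 4 lower means of 8 measured, with overlap for each. The NKG2D ligand gene Ulbp1 differed by -0.69 (SE 0.56), Clec2d by 0.54 (SE 0.59), H2-T3 by 0.43 (SE 0.32) from a Tcf1-/+ mean under background, and Clec2e by -0.17 (SE 0.42). Clec2d turned to -0.07 without Tcf1-/- replicate 2, and Clec2e to 0.10 without Tcf1-/- replicate 3 and to 0.13 without Tcf1-/+ replicate 1. Ulbp1 was at -0.27 without Tcf1-/+ replicate 2, and H2-T3 at 0.12 with the floor.

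Other NK activating and co-receptors had 5 higher and 9 lower means of 14 measured. Cd2, an adhesion receptor, was lower by 2.40 on the log2 scale (difference -2.40, SE 0.65) and Cd27 differed by -1.15 (SE 0.54), both without overlap, and Cd27 by -0.55 without Tcf1-/- replicate 2. Cd7 was higher by 1.33 (SE 0.36) without overlap, and Ly9 differed by -0.67 (SE 0.33). Of 30 NK effector and transcription factor genes, 20 had higher and 10 lower means, with a median of 0.14. Gzmb, Id2 and Gzma were apart upwards, with differences of 4.06 (SE 0.69), 3.19 (SE 0.49) and 3.05 (SE 1.14), and Ikzf2, named after its value was seen, downwards with -0.54, although 1 other probe set of it was higher. Il2rb, the beta chain of the interleukin 2 and 15 receptors, differed by 2.36 (SE 0.90). Among the Tcf1-/- arrays Gzma read 11.16, 7.53 and 12.004, so that replicate 2 lay close to the Tcf1-/+ arrays. None of these genes was called, and the lowest limma adjusted p among them was 0.407.

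Markers of cell types that carry these receptors or chains were read on each array. Of 8 NK markers, 4 had higher means. The list level was 7.23, 6.60 and 6.89 in Tcf1-/- and 6.66, 6.89 and 6.47 in Tcf1-/+. All these markers but Klra8 are also on the list of NK effector and transcription factor genes. So are the innate lymphoid markers Rora, Gata3 and Zbtb16. Other lists share genes too, such as Flt3 on the progenitor and dendritic lists, so the lists are not separate observations. Both means of Tbx21 lay under background and Klra8 was under it on all 6 arrays, while Eomes reached 7.10 on Tcf1-/+ replicate 2 and at most 5.26 on any other array. Of the innate lymphoid markers, 5 of 8 were measured and 4 had higher means, at list levels of 8.03 to 8.96 in Tcf1-/- and 7.32 to 7.53 in Tcf1-/+. Tcf1-/- replicate 2 was the highest array for this list, for Fcer1g, for Klrb1b, for the brighter Klrb1f probe set and for Klrk1. It was the lowest Tcf1-/- array for the mean of the NK list, and it is the array that stood apart from the others. That rank leans on Gzma, at 11.16, 7.53 and 12.004 in Tcf1-/-. Among the Tcf1-/- arrays, Ccl5 and Nkg7 were also lowest on replicate 2, while Itga2, Eomes, Prf1, Klra8 and Tbx21 were highest on it. The rank was therefore not shared across the list. How far such cells within the gate take part in these values was not tested.

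Mast cell and basophil markers had the direction of Fcer1g, with higher Tcf1-/- means for 9 of 9 genes, 2 of which are also on the list of partners. The list level was 9.20, 7.94 and 9.89 in Tcf1-/- and 7.28, 7.42 and 7.97 in Tcf1-/+. It was therefore lowest among Tcf1-/- arrays, and within the Tcf1-/+ range, on replicate 2, where Fcer1g was highest. Of the 9 markers, 7 were above background on all Tcf1-/+ arrays and 8 on all Tcf1-/- arrays. Mcpt8, a basophil protease, and Cpa3 were apart upwards, by 3.14 (SE 0.60) and 1.09 (SE 0.37), and were chosen for mention after their values were seen. Neutrophil markers had higher means for 7 of 8 genes, at 7.53 to 9.32 in Tcf1-/- and 6.25 to 8.46 in Tcf1-/+. Macrophage and monocyte markers overlapped, at 6.24 to 7.11 in Tcf1-/- within which all 3 Tcf1-/+ arrays lay, with Adgre1, Cd14 and Itgam under background on all arrays. Dendritic markers, a type that also carries both ITAM chains, had lower means for 5 of 8 genes, a median difference of -0.49 and 2 genes apart downwards. Their list level was 7.46, 8.09 and 7.53 in Tcf1-/- and 7.74, 8.41 and 8.31 in Tcf1-/+. Erythroid markers had higher means for 4 of 4 measured genes, a median of 1.57 and 1 gene apart upwards, at 6.25 to 7.45 in Tcf1-/- and 4.44 to 6.75 in Tcf1-/+. Means were higher for 1 of 3 gamma delta T, 3 of 5 alpha beta T and 4 of 5 B lineage markers. The part of these cells in the Fcer1g difference was not tested beyond these values.

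**Figure D4:**
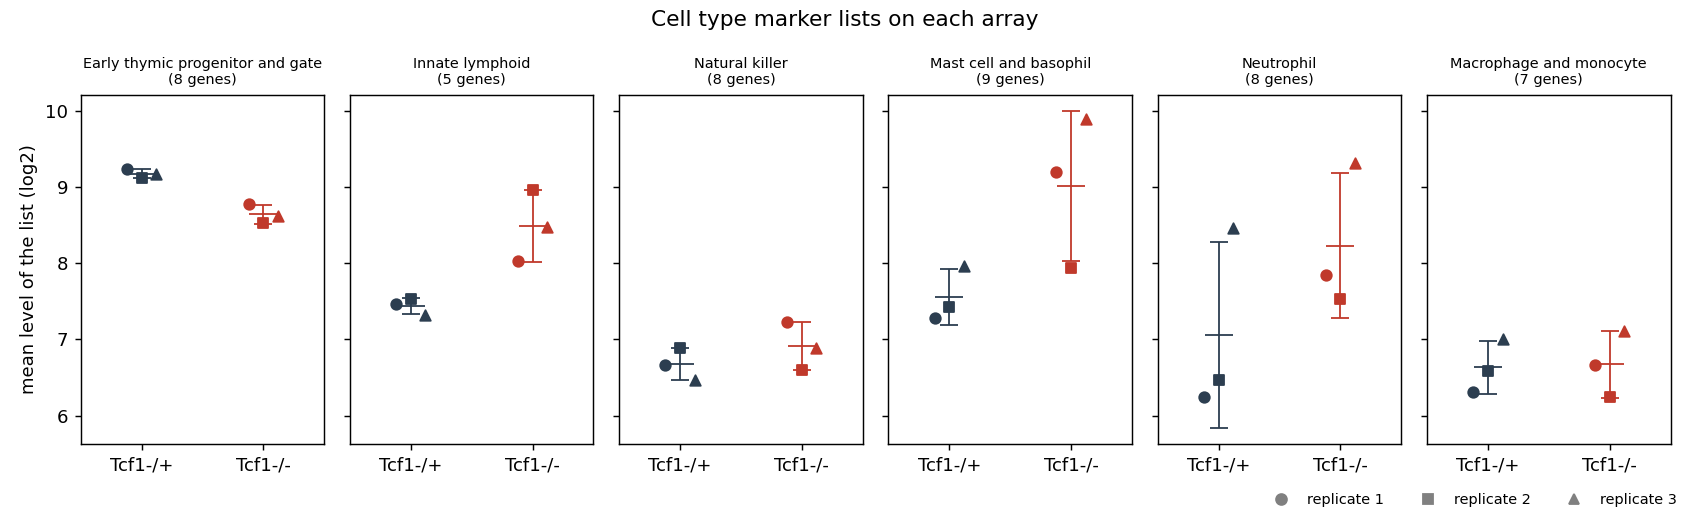
Each panel plots the mean log2 level of 1 marker list on the 3 Tcf1-/+ (dark) and 3 Tcf1-/- (red) arrays, with mean and SD as bars. Innate lymphoid markers are higher and progenitor and gate genes lower on all Tcf1-/- arrays, and Tcf1-/- replicate 2 (square) is the lowest Tcf1-/- array for mast cell and basophil markers at 7.94.

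The genes whose pattern over the 6 arrays was most like that of 4 members were found by Pearson correlation among the 10794 genes brighter on average than the median probe set. For Fcer1g they were Vamp4, Npy1r and Nrp1, each with r of 0.99, and 44 genes exceeded 0.95. For Klrd1 they were H13, Rab37 and Tceal9 (r from 0.985 to 0.997). For Tyrobp they were Scarb2, Rnf11 and Cdca2 (r from 0.997 to 0.999), and for Hcst Acad11, Papolg and Cirbp (r from 0.976 to 0.983). The number of genes over 0.95 was also 44 for Klrd1, and it was 60 for Tyrobp and 18 for Hcst. It is therefore not particular to Fcer1g. With 6 arrays of 2 genotypes and this many genes such values are a description of these arrays alone.

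**Figure D5:**
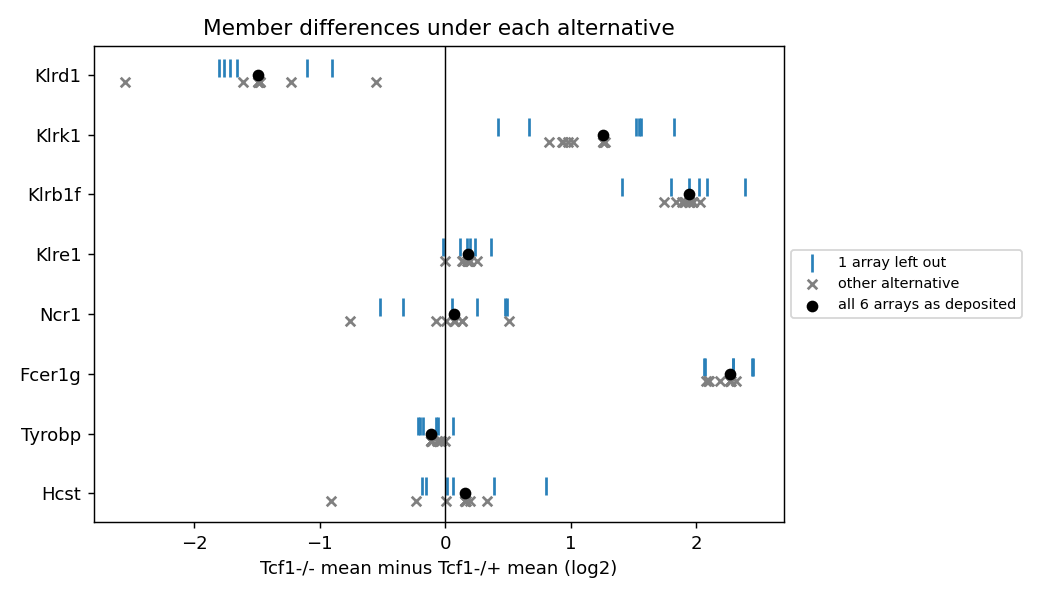
For each of the 8 members the plot gives the difference between genotypes in log2 units with all arrays as deposited (black), with each array left out (blue bars) and under the other alternatives (grey crosses). Fcer1g stays between 2.07 and 2.45 and Klrb1f between 1.41 and 2.39, Klrd1 is below 0 throughout but from -2.55 to -0.55, and Hcst, Ncr1, Klre1 and Tyrobp have values on both sides of 0.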

How the data were processed

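The authors deposited log2 summaries per probe set of the Affymetrix mouse array. Their summary and normalization methods are not given in the sources used here. That the scale is log2 was inferred from a value range of 2.15 to 14.81 and array medians of 5.80 to 5.87. Values were used as deposited. Arrays have no read depth, and their number limits the precision. Of 45101 probe sets, 64 controls were left out. The platform annotation gave 1 symbol to 34945 of the others, several to 932 and none here to 9160, and RefSeq's gene table (GRCm38.p6, names and order only) held 34741 of them. Tcf7, which encodes Tcf1, was not analysed here. Each gene was read through its brightest probe set, by the mean of the 6 arrays.

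The test between genotypes was that of limma 3.58.1, run under R 4.3.3 (lmFit, then eBayes, two-sided, all 6 arrays, no covariate), with Benjamini-Hochberg adjustment over all tested probe sets and a threshold of 0.05. The fit was tested on simulated data. Differences are Tcf1-/- minus Tcf1-/+. Exact permutation of 3 against 3 arrays cannot give a p under 0.1 and was not used. Members, gene lists, motifs and named genes (all members, and up to 4 genes of smallest unadjusted p above background per pathway list) were chosen with earlier results of these data known. Columns of values not used numbered 0.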

Additional observations from a re-analysis of the deposited data

How the results depend on the processing

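The differences of Fcer1g, Klrb1f and Klrk1 kept their sign and moved by less than the spread between arrays under all 16 alternatives. For Klrk1 that spread is wide, with SDs of 1.47 and 1.02 beside a difference of 1.26, which fell to 0.42 without Tcf1-/- replicate 2. Some alternatives could not move Fcer1g, which has 1 probe set that is above background on all arrays. It stayed at 2.27 with the floor, without dim probe sets and with all probe sets averaged. Klrd1 kept its sign under all 16 but moved to -2.55 on the arrays with high and to -0.55 on those with low Y-linked signal, splits with a single array on 1 side, so that dependence on the Y-linked level cannot be told apart from that array. They were added after the data were seen, as was leaving out members under background. Hcst turned its sign under 4 of 16 and was at -0.91 among the low Y-linked arrays, where Tcf1-/- replicate 1, its lowest array, stands alone. Ncr1 turned under 4 of 15, Klre1 under 1 of 15 and Tyrobp under 1 of 16. The median of the receptors was 1.26 when dim probe sets or members under background were left out, and lay between -0.02 (without Tcf1-/- replicate 3) and 0.49 with 1 array left out. That of the adaptors became 0.77 as a mean and lay between -0.16 and 0.81 with 1 array left out. The adaptor minus the receptor median was -0.02, but -1.10 without dim probe sets or without members under background, 0.38 as a mean, 0.06 after quantile normalization and -0.48 to 0.33 with 1 array left out, so its sign is not settled. The cause was not tested beyond the fewer genes these settings hold. The number of probe sets called stayed at 0 under every alternative run, including the replicate block. Each block holds 1 array of each genotype, so the block cannot change a difference, and Fcer1g necessarily stayed at 2.27 with it. Same-numbered arrays correlated by 0.030, 0.045 and 0.012 in their deviations from the group means, so the numbers were not taken to pair them. Depth does not apply to arrays, and nearness to background limits Klrk1, Klre1 and Ncr1.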
